A study of Mus musculus with 5 samples.

Results

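Upp1, the uridine phosphorylase gene, was described together with 8 other genes of nucleoside salvage and of the breakdown of nucleosides and their triphosphates in macrophages that had entered tumour cell plugs. The 9 genes were Upp1, Tymp, Cda, Cmpk2, Uck2, Tk1, Ada, Hprt and Samhd1. Every probe set whose platform annotation gave one of these symbols was taken, which found 18 of the 45037 probe sets, for 8 genes, each probe set with a single symbol. No probe set was annotated to Tymp, and it was not analysed here. Upp1 was chosen by its high signal in tumoricidal relative to control macrophages on these same arrays, and the other genes were grouped around it with results of these arrays known. The differences of the 9 genes are therefore given as a description, with no p-value.

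Nucleoside salvage recycles bases and nucleosides, which spares the cell from building nucleotides anew. Pyrimidine nucleosides such as uridine are split to base and sugar phosphate by phosphorylases, deaminated, or phosphorylated by kinases, while purines pass through adenosine deaminase, purine nucleoside phosphorylase and the phosphoribosyltransferases. In myeloid cells this traffic matters for a further reason: the dNTP pool is kept low by SAMHD1, which restricts viruses that need dNTPs to copy their genomes, and several enzymes of the network are known as interferon-inducible.

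The macrophages were CD11b+ cells sorted on day 8 from subcutaneous Matrigel plugs, a gelled basement-membrane matrix that holds injected cells in place. All hosts were SCID mice on the Balb/c background, aged 7 to 12 weeks, that carried a transgenic T-cell receptor specific for the MOPC315 idiotype. SCID mice lack B and T cells of their own, here apart from T cells with that receptor, and keep natural killer cells. Tumoricidal macrophages (3 arrays, biological replicates) came from plugs with MOPC315 myeloma cells, and control macrophages, labelled non-tumoricidal (2 arrays), from plugs with an antigen-loss form of MOPC315. The labels do not say whether animals were pooled for an array, and p-values measure only the spread between these samples.

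Values below are linear signals after each array was scaled to a common median, and differences are on the log2 scale, tumoricidal minus control, with values under a floor of 4.79 raised to it. Before this scaling the array medians were 15.4 to 18.7 on the tumoricidal arrays and 18 and 22.6 on the control arrays, and values are given below in the order of the replicate numbers. Over all 17074 genes the median log2 difference was 0.13, against -0.07 with the deposited scaling and 0.02 with quantile normalization, so small differences depend on that choice. Macrophage markers were present on every array, and 2 of 9 were apart between the groups, with tumoricidal higher. The log2 differences of the 9 ran from -0.18 to 1.14. As examples, Csf1r had 5913 to 6808 in tumoricidal and 5186 to 5290 in control samples, and Lyz2 had 6367 to 9068 in tumoricidal and 5896 to 6482 in control samples. Markers of other cell types differed between the groups. All 7 measured natural killer cell markers were higher on every tumoricidal array, with summed signals of 1181 to 3263 in tumoricidal and 245 to 575 in control samples. Of these, Ncr1 was at 24.1 to 81.1 in tumoricidal samples, against 7.60 to 9.72 in controls. Eomes was at 29.0 to 57.6 in tumoricidal samples, against 1.60 to 11.8 in controls. Of 8 T-cell markers 4 were apart in this way, with sums of 115 to 1161 in tumoricidal and 66.2 to 128 in control samples, the highest in tumoricidal replicate 2. Of 7 neutrophil markers 4 were, with sums of 9127 to 10234 in tumoricidal and 3892 to 6526 in control samples. The 4 were S100a8, S100a9, Cxcr2 and Lcn2, and S100a8 and S100a9 made up most of every sum. The granule genes Mpo, Elane and Camp overlapped between the groups, with log2 differences of -0.29, -0.35 and 0.98. Plasma cell and myeloma markers had sums of 3673 to 5145 in tumoricidal and 5720 to 6366 in control samples, with 5 of 10 lower and 2 higher on every tumoricidal array. The 5 were Pou2af1, Jchain, Tnfrsf17, Mzb1 and Irf4, with log2 differences of -3.24, -2.80, -2.65, -1.60 and -0.51. Tnfrsf17 was at the floor on all 3 tumoricidal arrays. The 2 were Xbp1, at 0.30, and Prdm1, at 0.66. Xbp1 was the largest part of every sum, so the sums understate the differences of the 5 lower markers. Beside these marker counts, 17% of all genes were higher and 6.51% lower on every tumoricidal array. In sorted bulk samples more cells of a type and more RNA per cell cannot be told apart, and the part of these cells in the values below was not tested except where a value is given beside it. Clustering on their spike-in controls, cut at 2 sets so that some split was certain, divided the 5 arrays. Set A held tumoricidal replicates 1 and 2 and control replicate 1, and set B held tumoricidal replicate 3 and control replicate 2. In B 2 BioC controls were at 0.293 and 0.329 times their signal in A, and 18 Dap, Lys and Phe controls at 1.61 to 2.79 times. The other families differed less, with BioB at 0.690 to 0.860, BioD at 0.869 to 0.925 and Cre at 0.949 to 0.967 times. For the 8 salvage genes the differences within each set are given beside the results.

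The data showed a divided picture among the 8 genes. Upp1 and Samhd1 had clearly higher signals in tumoricidal macrophages, by 11.6-fold and 2.95-fold. Hprt was apart between the groups by a smaller amount. For Cmpk2, Uck2, Tk1, Cda and Ada the arrays of both groups overlapped. Thus 3 of 8 genes had all tumoricidal arrays above both control arrays and 0 had all below. Over all genes measured these shares were 17% and 6.51%. Nothing is read from this, since the choice of the genes used the same contrast.

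**Figure D1:**
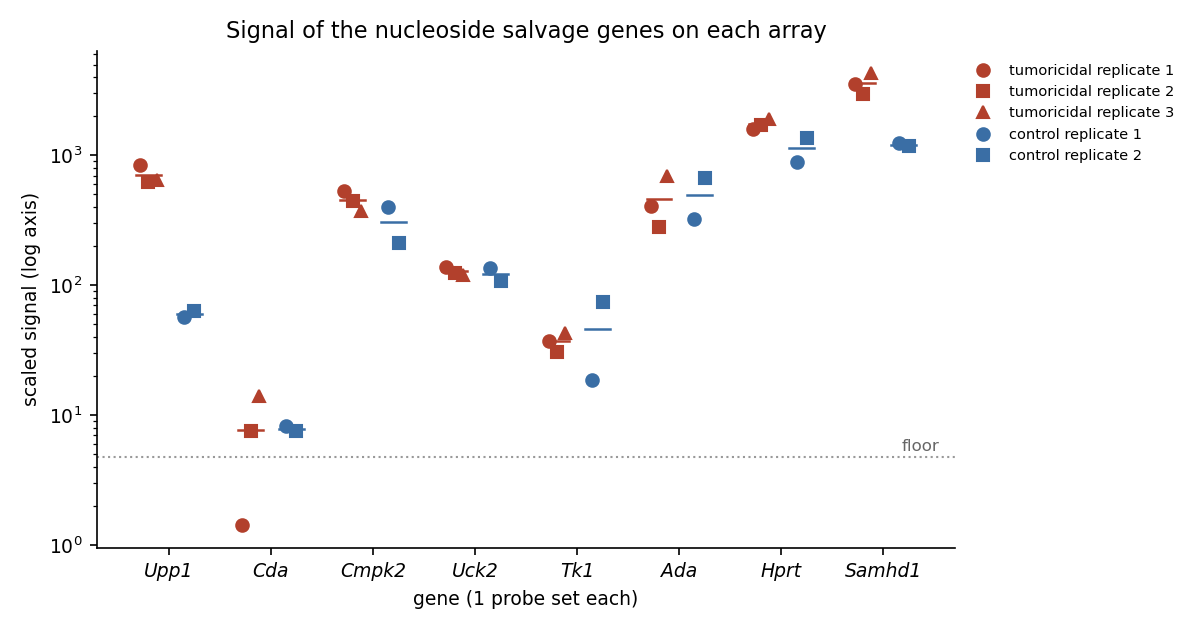
Scaled signal (log axis) of the 8 genes on each of the 3 tumoricidal (red) and 2 control (blue) arrays, 1 probe set per gene, with a horizontal bar at the mean of each group and the floor of 4.79 dotted. Upp1, Hprt and Samhd1 have no overlap between groups, while control replicate 1 and control replicate 2 stand on either side of the tumoricidal arrays for Tk1.

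Upp1 encodes the enzyme that splits uridine to uracil and ribose 1-phosphate, which can feed the sugar into central metabolism. It had 849, 620 and 641 on the tumoricidal arrays, against 57.1 and 63.1 on the control arrays. All 3 tumoricidal arrays were high and both control arrays low, with a gap far wider than the spread inside either group. The means were 703 ± 127 in tumoricidal (SD, n = 3) and 60.1 ± 4.24 in control macrophages (SD, n = 2), a log2 difference of 3.54 (SE 0.26). The difference was 3.67 within set A and 3.34 within set B, and it ran from 3.39 to 3.62 with single arrays left out. Only 17 genes of 17074 had a larger difference. The summed neutrophil markers were 10234, 9127 and 10058 on the tumoricidal arrays and 3892 and 6526 on the control arrays. The summed natural killer markers were 3085, 3263 and 1181 on the tumoricidal and 575 and 245 on the control arrays, and the T-cell sums 156, 1161 and 115 on the tumoricidal and 128 and 66.2 on the control arrays. The neutrophil sums, mostly S100a8 and S100a9, and the natural killer sums did not overlap between the groups, and the T-cell sums did. The part of these cells in the Upp1 difference was not tested.

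The genes whose profile over the 5 arrays lay nearest to that of Upp1 were sought by the root mean square difference of centred log2 signals, among genes above the median level. They were Slamf8 (0.16), Socs1 (0.18), Gbp2 (0.19), Calhm6 (0.26), Gbp2b (0.27) and the transcript AW112010 (0.32). Slamf8 is a macrophage surface receptor, Socs1 an inhibitor of cytokine signalling, and Gbp2 and Gbp2b are interferon-inducible GTPases. Slamf8 had 1131, 989 and 1159 in tumoricidal and 90.1 and 114.6 in control samples, and Gbp2 had 3164, 2167 and 2974 in tumoricidal and 186.5 and 202.0 in control samples. Of the other salvage genes Samhd1 was the nearest to Upp1, at 0.99, and all others were at 1.44 or more. With 5 arrays in 2 groups this measure mostly reflects the size of the group difference.

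Promoter sequence, which played no part in the choice of the genes, was set beside these signals because interferon-activated factors are known to bind short motifs near gene starts. Windows of 250 bases before to 50 after each annotated start (RefSeq, GRCm38.p6, a C57BL/6J sequence rather than the Balb/c strain used here) were searched on both strands for an ISRE-like motif (GAAA, any 2 bases, GAAA, or TTTC, any 2 bases, TTTC on the other strand) and a GAS-like motif (TTCNNNGAA, which reads alike on both strands). The ISRE-like motif was in 3.44% and the GAS-like motif in 8.3% of all 32851 windows. Of the 6 genes nearest to Upp1, 5 held the ISRE-like motif. Neither motif was in any of the 3 windows of Upp1. No ISRE-like motif was found in the windows of the 9 salvage genes, and the GAS-like motif was in those of Ada and Samhd1, where the signals of Samhd1 differed between the groups and those of Ada overlapped. These are matches of letters in short windows and say nothing about binding. The 250 bases before the start are printed for Upp1, for Slamf8 and Gbp2 as examples of the 5 neighbours with a motif (the nearest to Upp1 of those with a single match), and for the 2 salvage genes with one, each 5′ to 3′ along the gene, with matches in capitals: Upp1 (chr11:9117758-9118007, plus strand), Slamf8 (chr1:172590569-172590818, minus strand), Gbp2 (chr3:142620413-142620662, plus strand), Samhd1 (chr2:157135097-157135346, minus strand) and Ada (chr2:163750240-163750489, minus strand).
Upp1: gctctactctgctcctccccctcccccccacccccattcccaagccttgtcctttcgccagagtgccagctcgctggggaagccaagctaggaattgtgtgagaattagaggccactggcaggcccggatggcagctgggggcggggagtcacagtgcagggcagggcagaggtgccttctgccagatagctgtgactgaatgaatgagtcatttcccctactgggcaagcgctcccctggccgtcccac
Slamf8: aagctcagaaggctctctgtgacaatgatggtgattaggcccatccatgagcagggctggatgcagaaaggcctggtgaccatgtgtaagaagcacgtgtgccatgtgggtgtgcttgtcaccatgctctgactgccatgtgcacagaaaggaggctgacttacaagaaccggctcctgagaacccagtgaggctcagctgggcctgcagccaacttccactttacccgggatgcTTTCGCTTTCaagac
Gbp2: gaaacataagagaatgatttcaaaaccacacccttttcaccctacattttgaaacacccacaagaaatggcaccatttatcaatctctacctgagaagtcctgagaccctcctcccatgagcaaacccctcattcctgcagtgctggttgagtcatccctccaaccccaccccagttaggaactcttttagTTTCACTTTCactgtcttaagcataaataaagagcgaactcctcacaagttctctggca
Samhd1: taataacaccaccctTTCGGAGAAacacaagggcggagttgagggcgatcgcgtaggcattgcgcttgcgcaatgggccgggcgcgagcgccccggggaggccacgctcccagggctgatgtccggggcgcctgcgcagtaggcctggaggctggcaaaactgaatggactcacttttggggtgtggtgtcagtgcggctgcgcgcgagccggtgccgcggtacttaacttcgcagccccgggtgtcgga
Ada: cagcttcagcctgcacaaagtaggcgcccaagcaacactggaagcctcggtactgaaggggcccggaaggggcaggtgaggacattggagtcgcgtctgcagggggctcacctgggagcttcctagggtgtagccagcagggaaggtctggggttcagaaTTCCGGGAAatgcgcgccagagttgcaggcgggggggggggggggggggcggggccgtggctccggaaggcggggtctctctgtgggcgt
The ISRE-like match began 15 bases before the start in Slamf8 and 59 bases before it in Gbp2. The GAS-like match began 235 bases before the start in Samhd1 and 90 bases before it in Ada.

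Samhd1, the triphosphohydrolase that breaks dNTPs of either kind into nucleoside and triphosphate, was the other gene with a large difference. Its main probe set had 3559, 2971 and 4279 on the tumoricidal arrays, against 1236 and 1177 on the control arrays. All tumoricidal arrays stood above both control arrays, with a gap wider than the range inside either group. Group means were 3603 ± 655 (SD, n = 3) in tumoricidal and 1207 ± 41.9 (SD, n = 2) in control samples, a log2 difference of 1.56 (SE 0.26), with 1.40 within set A and 1.86 within set B. A second Samhd1 probe set had 1589, 1533 and 1432 in tumoricidal and 514 and 584 in control samples, a difference of 1.47 (SE 0.23). All 5 Samhd1 probe sets had non-overlapping groups, with differences from 0.82 to 1.56, where 13.3% of all probe sets were apart in that direction and 7.6% in the other. For 1 of the 5 the gap was narrow, with 247.2 in tumoricidal replicate 3 and 246.7 in control replicate 1. With the deposited scaling, and with quantile normalization, 3 of the 5 were apart.

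**Figure D2:**
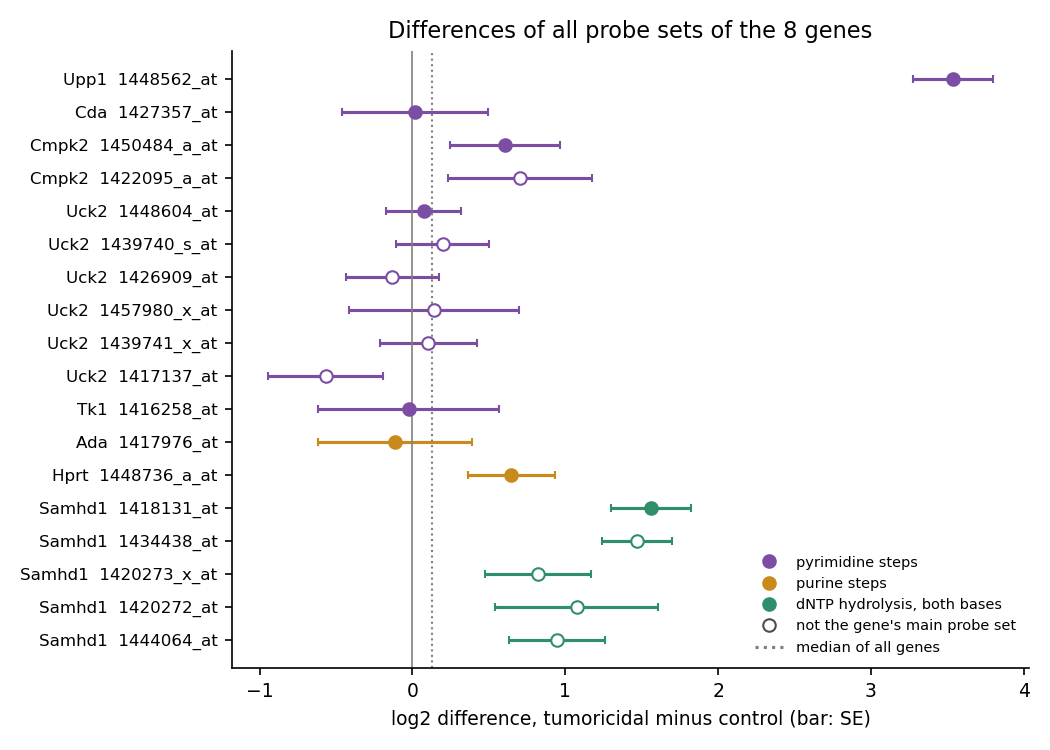
Log2 difference, tumoricidal minus control, with its limma SE (bars), for all 18 probe sets, coloured by the step the enzyme serves; filled points are the probe set used for the gene and the dotted line is the median of all genes, 0.13. The Upp1 probe set lies at 3.54 and the 5 Samhd1 probe sets between 0.82 and 1.56, while 5 of the 6 Uck2 probe sets lie between -0.13 and 0.20.

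For Uck2 and Tk1, kinases of pyrimidine salvage, the arrays of both groups overlapped. Uck2, the uridine-cytidine kinase that competes with the phosphorylase for uridine, had 138, 125 and 121 in tumoricidal and 137 and 108 in control samples, a log2 difference of 0.07 (SE 0.24) that was -0.05 within set A and 0.16 within set B. All 6 Uck2 probe sets overlapped between groups. A dim one of the 6 was at the floor on all 3 tumoricidal arrays and on control replicate 1, so that no fold is given for it.

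Tk1, the cytosolic thymidine kinase of dividing cells, had 37.2, 30.7 and 43.0 in tumoricidal and 18.8 and 73.8 in control samples. The control arrays thus held both the lowest and the highest value, and the log2 difference of -0.02 (SE 0.59) became -1.01 without control replicate 1 and 0.96 without control replicate 2. It was 0.85 within set A and -0.78 within set B, so that its direction turned between the sets. The proliferation marker Mki67 had 332, 246 and 411 in tumoricidal and 315 and 418 in control samples (log2 difference -0.17, SE 0.32). None of 13 cell cycle genes was apart between the groups, beside 17% of all genes higher and 6.51% lower. Their median difference was -0.12. The largest were those of Ccna2, a cyclin, at -0.38, and Cdc20, an activator of the anaphase-promoting complex, at -0.27.

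Cmpk2, the mitochondrial UMP-CMP kinase, lies next to the antiviral gene Rsad2 in the annotation's order of coding genes. It had 529, 449 and 371 in tumoricidal and 401 and 212.5 in control samples, so that control replicate 1 exceeded tumoricidal replicate 3. The log2 difference was 0.61 (SE 0.36), and it was 0.15 without control replicate 2 and 1.07 without control replicate 1. Within the spike-in sets it was 0.28 in A and 0.80 in B. The second Cmpk2 probe set had a difference of 0.70 (SE 0.47), with tumoricidal replicate 1 at 135 and the other tumoricidal arrays at 47.0 and 81.4, against 52.0 and 46.6 in controls. Rsad2 also overlapped between groups, with 2991, 1267 and 2957 in tumoricidal and 1779 and 1133 in control samples, a difference of 0.66 (SE 0.48). Both genes are known targets of type I interferon, and 4 of 10 interferon-inducible genes listed for comparison were apart with tumoricidal higher and 0 with tumoricidal lower, beside 17% and 6.51% of all genes. The 4 were Cxcl9, Gbp2, which differed by 3.82, Irf1 by 2.49 and Cxcl10 by 1.96. Overlapping besides Rsad2 were Ifit1, which differed by 0.79, Irf7 by 0.71, Ifit3 by 0.45, Mx1 by 0.08 and Oas2 by -0.21. Cxcl9, a target of interferon-gamma, had 5622, 3467 and 3843 in tumoricidal and 73.8 and 56.8 in control samples, a log2 difference of 6.02.

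Cda, the cytidine deaminase, was close to the floor throughout. Its only probe set had 1.42, 7.51 and 14.1 in tumoricidal and 8.20 and 7.60 in control samples, with tumoricidal replicate 1 under the floor, a difference of 0.02 (SE 0.48) that was -0.45 within set A and 0.90 within set B. A change in Cda could not be judged at this signal.

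Among the purine steps, Hprt, which returns hypoxanthine and guanine to nucleotides, had 1607, 1717 and 1898 in tumoricidal and 896 and 1370.5 in control samples. The groups did not overlap, and the log2 difference was 0.65 (SE 0.28), with 0.89 within set A and 0.47 within set B. It rested in part on control replicate 1, since it was 0.34 without that array and 0.95 without control replicate 2, and quantile normalization gave 0.29. Ada, which deaminates adenosine and deoxyadenosine, had 408, 281 and 697 in tumoricidal and 325 and 670.1 in control samples, a log2 difference of -0.12 (SE 0.51) that was -0.64 without control replicate 1 and 0.41 without control replicate 2. Within each set it was 0.06. Its 2 highest values came from the arrays of spike-in set B, 1 of each group. On the main probe sets, the same arrays gave the 2 highest values of Tk1 and the 2 lowest of Cmpk2 and Uck2. The second Cmpk2 probe set did not follow, with tumoricidal replicate 2 at 47.0 and tumoricidal replicate 3 at 81.4. Of the other Uck2 probe sets some followed and some did not. Over all genes both set B arrays stood above all set A arrays for 20.6% and below for 6.36%.

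The pyrimidine and purine steps were compared by averaging, on each array, the log2 signals of the 5 pyrimidine genes and of the 2 purine genes, each relative to the mean of the control arrays. The pyrimidine steps (Upp1, Cda, Cmpk2, Uck2 and Tk1) stood at 0.83, 0.74 and 0.96 on the tumoricidal arrays, against -0.08 and 0.08 on the control arrays. The purine steps (Ada and Hprt) stood at 0.17, -0.05 and 0.68 in tumoricidal samples, against -0.41 and 0.41 in controls. Pyrimidine steps were thus apart between the groups and purine steps were not, but the difference between the steps was smaller than this looks. Pyrimidine minus purine was 0.66, 0.79 and 0.28 in tumoricidal and 0.34 and -0.34 in control samples, which overlap. The group difference of that measure was 0.58, with 0.38 within set A and 0.62 within set B, and it was 0.24 without control replicate 2 and 0.91 without control replicate 1. It came from 1 gene, Upp1, which was chosen for its high signal in this same contrast. Without Upp1 the pyrimidine steps stood at 0.08, 0.08 and 0.35 in tumoricidal samples, against -0.08 and 0.08 in controls, and the pyrimidine minus purine difference was -0.10. With Samhd1 counted among the purine steps it was 0.14. Pnp, the purine nucleoside phosphorylase described below, had groups apart with a difference of 1.28 but was not among the purine genes averaged here.

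**Figure D3:**
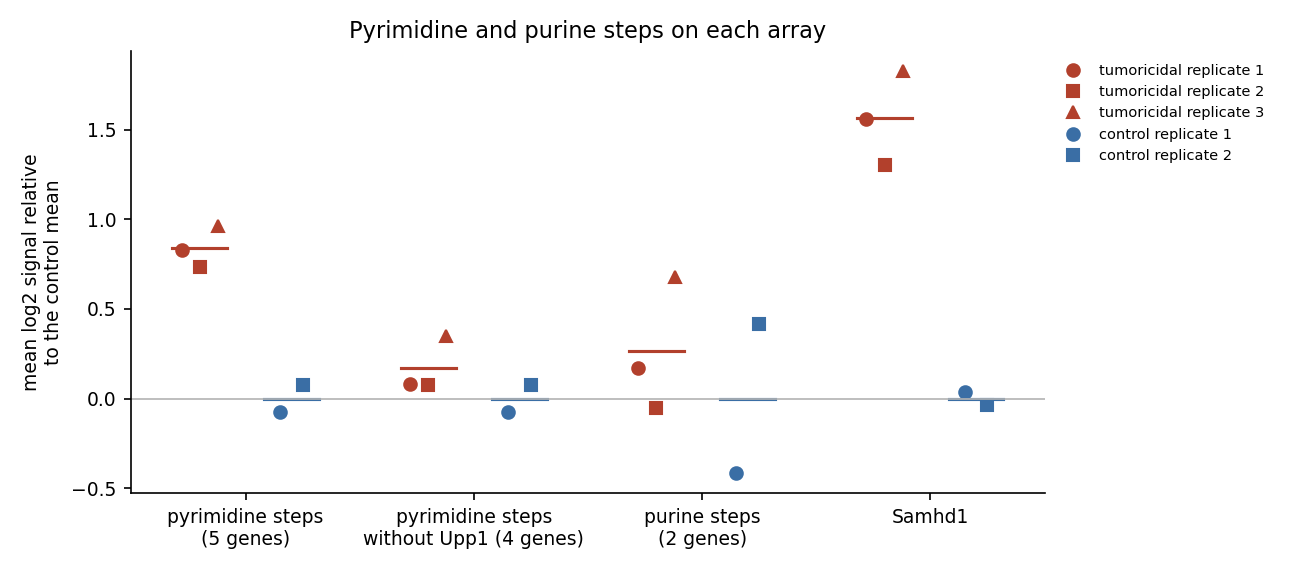
Mean log2 signal relative to the control mean (vertical axis) of the pyrimidine steps with and without Upp1, the purine steps and Samhd1, on each tumoricidal (red) and control (blue) array, with a bar at each group mean. The tumoricidal mean of the pyrimidine steps is 0.84 with Upp1 and 0.17 without it, and the purine mean is 0.27.

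Other genes of nucleotide metabolism gave no call. Their lists were drawn up by textbook function, but with earlier results of these data known. The limma fit over all 41053 probe sets called 21 (0.0512%) at an adjusted p under 0.05 (Benjamini-Hochberg), 14 higher (0.0341%) and 7 lower (0.0171%) in tumoricidal macrophages. Of 62 measured genes in 7 lists, 0 rose and 0 fell by this limma test, where 0.0644% of all genes passed. At an unadjusted p under 0.05, 5 were higher and 0 lower. All tumoricidal arrays were above both control arrays for 16 of the 62 and below for 2, or 25.8% and 3.23%, beside 17% and 6.51% of all genes.

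In the list of other genes of pyrimidine salvage and breakdown, 7 of 15 were apart with tumoricidal higher and 0 with tumoricidal lower. Over all genes these shares were 17% and 6.51%. The median log2 difference of the list was 0.41, beside 0.13 over all genes. Dck, the deoxycytidine kinase, which also accepts purine deoxynucleosides, had 2284, 2498 and 2503 in tumoricidal and 1293 and 1209 in control samples. Its groups were far apart, with at 0.96 on the log2 scale (SE 0.23; adjusted p = 0.342, limma), and its other 2 probe sets differed by 1.45 and 0.70. Dpys, the dihydropyrimidinase that follows the first step of uracil breakdown, differed by 0.96 (SE 0.40, limma adjusted p = 0.650) at signals of 8.14 to 18.6 in tumoricidal and 5.70 to 6.13 in control samples, near the floor. The other 2 Dpys probe sets differed by 0.60 and 0.62, with overlapping groups and both control arrays at the floor. Nt5c3, a nucleotidase for pyrimidine monophosphates, was also apart, with 517, 287.3 and 299.8 in tumoricidal and 197 and 169 in control samples. Upp2, the other uridine phosphorylase, was also near the floor, at 0.701 to 8.14 in tumoricidal and 2.07 to 5 in control samples.

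In the list of other genes of purine salvage and breakdown, 4 of 13 were apart with tumoricidal higher and 1 with tumoricidal lower. Over all genes these shares were 17% and 6.51%. The median of the list was 0.28, beside 0.13 over all genes. Pnp, the purine nucleoside phosphorylase, is the purine counterpart of Upp1, and had the largest difference of all 62 genes. It had 3630, 2944 and 3331 in tumoricidal and 1359 and 1348 in control samples, higher in tumoricidal macrophages by 1.28 on the log2 scale (SE 0.23; adjusted p = 0.221, limma). A further probe set annotated to both Pnp and Pnp2 differed by 1.45 (SE 0.24), and the copies cannot be told apart by it. Lacc1, a macrophage enzyme known for acting on purine nucleosides, had 167, 116 and 217 in tumoricidal and 65.1 and 100.4 in control samples, a log2 difference of 0.997 (SE 0.37; adjusted p = 0.585, limma). The 1 gene lower on all tumoricidal arrays was Gda, the guanine deaminase, singled out after its values were seen, with 2045, 2322 and 2485 in tumoricidal and 2992 and 3101 in control samples (log2 difference -0.42, limma adjusted p = 0.771).

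**Figure D4:**
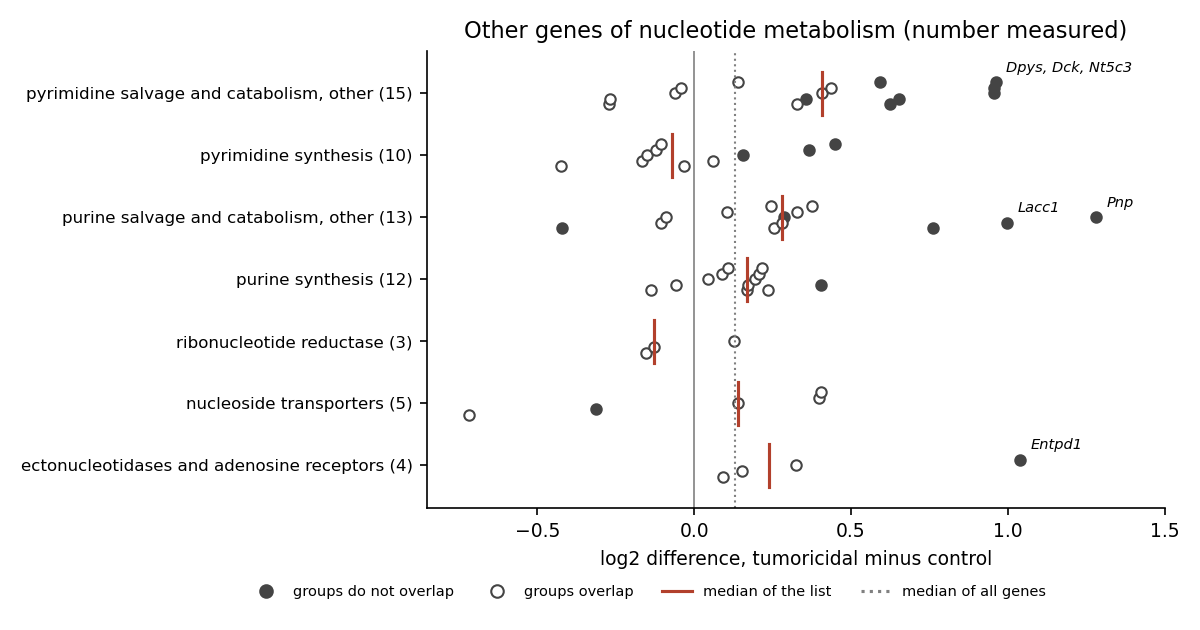
Log2 difference, tumoricidal minus control, of 62 genes in 7 lists of nucleotide metabolism; filled points have non-overlapping groups, red bars are list medians and the dotted line is the median of all genes, 0.13. Pnp lies furthest to the right at 1.28, and the lists of synthesis and ribonucleotide reductase have medians between -0.13 and 0.17.

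The lists of genes that build nucleotides anew, with ribonucleotide reductase, had medians between -0.13 and 0.17, beside 0.13 over all genes. In pyrimidine synthesis 3 of 10 were apart with tumoricidal higher, beside 17% of all genes, with a list median of -0.07. The largest differences in that list were 0.45 for Ctps2, a CTP synthase, and -0.43 for Nme1, a nucleoside diphosphate kinase. In purine synthesis 1 of 12 was apart with tumoricidal higher, beside the same 17%, with a median of 0.17. The largest differences there were those of Atic, at 0.40, and Gart, at 0.24, both enzymes of the purine ring pathway. Of the ribonucleotide reductase subunits Rrm1, Rrm2 and Rrm2b, which make deoxynucleotides, none was apart, with Rrm2 at -0.15 and Rrm1 at 0.13.

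Among 5 nucleoside transporters Slc29a4 alone was apart, with tumoricidal lower (log2 difference -0.31), or 1 of 5 beside 6.51% of all genes, and the largest differences were -0.72 for Slc29a2, with 2 of its 3 tumoricidal arrays at the floor, and 0.40 for Slc28a3. The equilibrative transporter Slc29a1 had 233, 154 and 286 in tumoricidal and 125 and 310 in control samples. The list of ectonucleotidases and adenosine receptors also held the peptidase gene Dpp4. Of the 4 measured genes in that list, Entpd1 alone was apart, with tumoricidal higher, or 1 of 4 beside 17% of all genes. It encodes CD39, which removes phosphates from extracellular ATP, and had 426, 313 and 523 in tumoricidal and 152 and 264 in control samples, higher in tumoricidal macrophages by 1.04 on the log2 scale (SE 0.37; adjusted p = 0.566, limma). Its other 2 probe sets also had groups apart, with differences up to 1.33. The adenosine receptor Adora3 differed by 0.33 (SE 0.58), with 1 array of each group at the floor.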

How the data were processed

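CD11b+ cells were sorted on a FACSAria, total RNA was extracted with Trizol and 6 µg was used for biotinylated cRNA by the Affymetrix protocol, per the labels' protocols. The authors deposited linear signal intensity per probe set for 5 arrays; the software and any scaling steps were not given in the sources used here. The mean of each array after trimming 2% at either end was 100.0. Arrays give no depth, and their number limits the precision.

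Each array was scaled to the median of the array medians, which differed by 1.47 times. After removal of 64 control probe sets, a floor was set at the pooled 25th percentile (4.79) before log2. A further 3984 probe sets never rose above this floor and were left out. The other 41053 were compared with limma 3.58.1 in R 4.3.3 (two-sided, lmFit with eBayes and no trend, no covariate, threshold 0.05 after Benjamini-Hochberg adjustment); the fit was tested on simulated data. The platform annotation gave the symbols (34945 probe sets with 1, 932 with several, 9160 with none). A gene is given by its single-symbol probe set with the highest mean log2. Promoters and figures used Python 3.11.15 with matplotlib 3.10.9.

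The members, gene lists and marker lists were chosen with earlier results of these data known. Named genes were all members, in each pathway list the genes called or else the 2 with the largest absolute difference, Rsad2, Cxcl9, Mki67 and the 6 genes nearest to Upp1; others were added as examples after their values were seen. Dendritic cell markers (6 measured, 1 apart in each direction) and fibroblast or endothelial markers (8 measured, 0 apart) complete the marker lists, and 2 of 9 macrophage markers were apart with tumoricidal higher. Over all genes 17% were apart with tumoricidal higher and 6.51% with tumoricidal lower. Tested alternatives covered scaling, floor, filter, trend, single arrays left out, blocks, probe set choice and the members counted.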

Additional observations from a re-analysis of the deposited data

How the results depend on the processing

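The number of probe sets called over the whole table depended on the settings, while the differences of Upp1 and Samhd1 did not change sign in any alternative run: Upp1 ran from 3.23 to 3.67 and Samhd1 from 1.17 to 1.86 over 16 alternatives each. Hprt (0.29 to 0.95) and Cmpk2 (0.15 to 1.07) stayed positive too. Cda took the opposite sign in 7 of 15 alternatives, and Uck2, Tk1 and Ada in 5, 4 and 5 of 16. Not every alternative could move a difference. For Upp1 the lower floor, the filter, the trend and the mean over its only probe set left 3.54 as it was. Its difference with the replicate block, 3.59, was the same as without tumoricidal replicate 3. Limma called 21 probe sets, but 0 with the floor at the 10th percentile (1808 higher and 1201 lower at an unadjusted p under 0.05), 71 with log2(signal + 16) in place of a floor, 65 with an eBayes trend, 222 with only probe sets above the median, and 0 with any single array left out (at least 1457 higher and 1019 lower at an unadjusted p under 0.05); no other tool was run. With the spike-in set as a block it called 0 (2631 higher and 1486 lower unadjusted). The replicate numbers of the titles were not known to pair samples (deviations of arrays with the same number correlated at 0.02 and -0.24 over probe sets): with the replicate block 0 were called (1103 and 933 unadjusted), the median member difference was 0.35 and pyrimidine minus purine 0.72. The median difference of the 8 members, 0.34, was 0.11 with the deposited scaling, 0.16 with quantile normalization, 0.61 with only probe sets above the median (7 members), 0.56 within set A, 0.64 within set B and 0.29 to 0.68 with single arrays left out. Pyrimidine minus purine, 0.58, was -0.10 without Upp1, 0.14 with Samhd1 among the purine steps and 0.24 to 0.91 with single arrays left out. Of the 62 other pathway genes 0 were called in every alternative that gave a test. The cause of these changes was not tested. Signals near the floor limit Cda, Dpys and Upp2.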

Other observations

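Spike-in set B, which holds 1 array of each group, stood apart from set A in many genes of the whole table. Genes of nucleotide metabolism were among them, as noticed after the values were seen. Both set B arrays were above all set A arrays for 21 of the 62 other pathway genes (33.9%) and below for 2 (3.23%), beside 20.6% and 6.36% of all genes. Uck1 had 112 in tumoricidal replicate 3 and 122 in control replicate 2, against 51.4 to 63.4 on the other arrays, and Tk2 had 182 in tumoricidal replicate 3 and 193 in control replicate 2, against 67.7 to 114 on the others. These values were not weighed further.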
